A study of Mus musculus with 2 samples.

Results

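The mammalian circadian clock genes were described in whole-layer back skin of the mouse, as 10 genes chosen by their known place in the clock: Arntl, Clock, Per1, Per2, Per3, Cry1, Cry2, Nr1d1, Nr1d2 and Dbp. All 10 were found by symbol in the deposited table of 24421 genes. RNA-seq had been run on 1 library of skin stretched for 5 days by a device glued to the back (called stretched skin here, Day5_Tension in the labels). The initial strain was 33%, and the study describes raising the strain each day. The other library was of non-stretched skin at day 5 (Day5_Control). Both came from wild-type C57BL6/J mice, which the study describes as 8-week-old females with hair follicles in telogen, the resting phase, kept on a daily cycle of light and dark. The hour of harvest is not given in the sources used here, nor is the number of mice behind each library.

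The clock runs in nearly every cell as a loop of transcription and repression. CLOCK and BMAL1, the protein of Arntl, bind E-box sequences and drive the Per and Cry genes, whose proteins return to the nucleus and repress that activity. The same activators drive Nr1d1 and Nr1d2, which encode the REV-ERB nuclear receptors, and Dbp, a transcription factor that passes the rhythm to D-box sequences in other genes. REV-ERBs repress Arntl through ROR elements, so that Arntl peaks when Nr1d1 and Dbp are low. In skin the clock is known for setting the daily timing of keratinocyte division and for its activity in the hair follicle. Arntl and the direct targets of the activators peak at roughly opposite times of day, so tissue taken at another hour can differ in opposite directions in them, and the positive arm (Arntl, Clock) was set against the other members as a check on harvest time. The check is coarse, since Clock itself cycles weakly in most tissues outside the brain, Cry1 peaks later than the other targets, and hours on either side of a peak can look alike.

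The promoters of 5 members are shown because they hold the elements through which the loops are wired. Sequences are from RefSeq on GRCm38.p6, the assembly of mm10, and each window runs from 250 bases before to 50 bases after a transcription start, read 5′ to 3′ on the strand of the gene. Windows were found for 9 members, all but Per2, and for 16 of 22 other clock genes. Capitals mark the letters searched on both strands: E-box CACGTG, E-prime box CACGTT, ROR element TAGGTCA or TGGGTCA, and D-box TTANGTAA.
Per1, chr11:69098699-69098998, plus strand: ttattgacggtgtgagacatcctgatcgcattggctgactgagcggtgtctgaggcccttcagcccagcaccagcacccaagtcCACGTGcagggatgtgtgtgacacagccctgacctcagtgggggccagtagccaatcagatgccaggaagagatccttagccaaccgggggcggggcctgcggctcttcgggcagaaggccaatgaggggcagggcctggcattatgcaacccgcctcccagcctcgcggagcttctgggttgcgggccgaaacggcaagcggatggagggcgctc
Cry1, chr10:85185005-85185304, minus strand: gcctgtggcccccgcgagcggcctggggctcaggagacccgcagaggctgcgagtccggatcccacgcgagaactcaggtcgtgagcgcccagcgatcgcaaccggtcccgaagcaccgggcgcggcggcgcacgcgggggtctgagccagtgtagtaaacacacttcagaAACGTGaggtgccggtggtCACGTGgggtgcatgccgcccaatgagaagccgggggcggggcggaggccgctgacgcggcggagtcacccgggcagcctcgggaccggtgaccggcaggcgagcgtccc
Nr1d1, chr11:98775328-98775627, minus strand: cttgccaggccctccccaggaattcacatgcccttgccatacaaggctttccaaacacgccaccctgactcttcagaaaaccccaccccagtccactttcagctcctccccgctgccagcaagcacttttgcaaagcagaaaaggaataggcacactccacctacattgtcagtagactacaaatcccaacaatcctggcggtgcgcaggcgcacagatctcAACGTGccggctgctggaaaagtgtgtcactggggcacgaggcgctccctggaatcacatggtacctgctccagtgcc
Per3, chr4:151044616-151044915, minus strand: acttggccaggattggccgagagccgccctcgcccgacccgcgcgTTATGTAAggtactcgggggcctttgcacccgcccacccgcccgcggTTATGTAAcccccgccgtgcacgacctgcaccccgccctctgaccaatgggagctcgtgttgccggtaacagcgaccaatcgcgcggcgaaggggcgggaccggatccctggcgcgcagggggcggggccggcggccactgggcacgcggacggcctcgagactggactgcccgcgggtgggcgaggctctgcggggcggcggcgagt
Arntl, chr7:113207261-113207560, plus strand: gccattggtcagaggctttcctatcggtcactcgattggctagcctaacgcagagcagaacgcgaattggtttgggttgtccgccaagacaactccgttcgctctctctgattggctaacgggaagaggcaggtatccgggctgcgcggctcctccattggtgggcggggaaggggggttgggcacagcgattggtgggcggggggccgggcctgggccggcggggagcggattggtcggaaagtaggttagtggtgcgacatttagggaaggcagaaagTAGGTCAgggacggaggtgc
The 9 members had 13 windows, since Arntl, Clock and Per1 have several starts. The E-box was present in 2 of these 13, those of Cry1 (60 bases before the start) and of Per1 (166 bases before it, in 1 of its 2 windows), against 7.15% of 32851 windows in all. The E-prime box was in those of Cry1, Cry2 and Nr1d1 (4.68% of all windows). The D-box was found in Per3 alone among members, in 2 copies, 205 and 158 bases before the start (2.32% of all), and the ROR element in Arntl alone, 31 bases after the start in 1 of its 2 windows (6.45% of all). A cyclic AMP response element of letters TGACGTCA was in none of the 13 (1.79% of all). A match describes these letters in this window and nothing of the factor that may bind there. Among the other clock genes, Ciart held 3 copies of the E-box.

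The libraries held 14152379 counts for non-stretched skin and 11648655 for stretched skin. Levels are given as CPM, the count per 1000000 counts of its library, with exact 95% Poisson intervals. Differences are log2 ratios of CPM in stretched over non-stretched skin with exact 95% Clopper-Pearson intervals. There is 1 library in each condition, so no test across replicates was possible, no p-value is given, and every interval covers counting error only. Reads were not marked with molecular identifiers. In these bulk samples fewer cells of a type and less RNA in each cell cannot be told apart.

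The clock was well measured in both libraries, with 180 to 1774 counts for each member. Per kilobase of exon (FPKM, computed from the counts), Nr1d1 had the highest level, 38.2 FPKM in non-stretched skin and 28.5 in stretched skin. Per1 (22.3 and 24.3 FPKM), Nr1d2 (16.2 and 13.6) and Dbp (13.1 and 10.2) came next, followed by Cry2 (7.93 and 8.44). This order of the upper 5 was the same in both libraries, although the counting intervals of Dbp and Cry2 overlapped in stretched skin. The lower 5 lay between 2.31 and 5.04 FPKM, and all of them but Clock changed places. Per2 was the lowest in non-stretched skin (2.49 FPKM) and Per3 in stretched skin (2.31 FPKM). In non-stretched skin the intervals of Cry1 and Arntl, of Arntl and Clock, and of Clock and Per3 overlapped, and in stretched skin those of Arntl and Cry1 and of Clock and Per2.

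**Figure D1:**
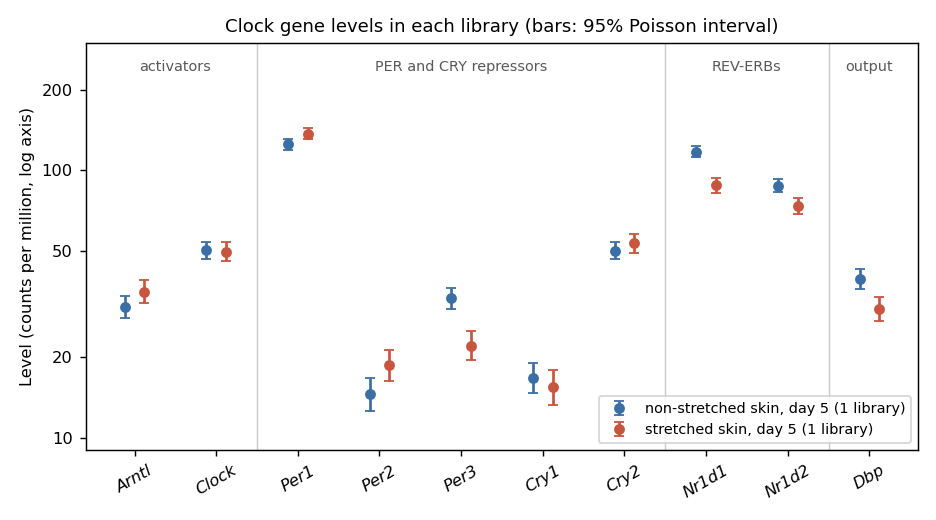
Level of each clock gene in CPM on a log axis, with 1 point for each library and bars for the 95% Poisson interval of the count. Per3, Nr1d1, Nr1d2 and Dbp sit lower in stretched skin, Per1 and Per2 sit slightly higher with bars that overlap at their ends, and the bars of Arntl, Clock, Cry1 and Cry2 overlap between the libraries.

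The clock genes differed between the libraries about as genes in general did, some higher and some lower in stretched skin. The rule of the study multiplies the FPKM values of the libraries, keeps genes with a product above 10 and then asks for a 2-fold difference, and it was applied here with 1 added to each FPKM. All 10 members then passed the filter on level and 0 were called. With nothing added, 8 members passed and again 0 were called. Of 10913 genes that passed with 1 added, 2.61% were upregulated and 2.45% downregulated, 5.06% in all. The most extreme bounds of the counting intervals were -0.81 for Per3 and 0.64 for Per2 on the log2 scale. The interval lay wholly above 0 for 2 members (Per1, Per2), wholly below 0 for 4 (Per3, Nr1d1, Nr1d2, Dbp) and included 0 for 4 (Arntl, Clock, Cry1, Cry2). Among the 9403 genes with 400 or more counts over both libraries, a minimum that every member met and that was chosen with their counts known, these shares were 20.9%, 44.4% and 34.8%, close to 2, 4 and 4 of 10. The median log2 ratio was -0.07 over the members and -0.12 over those 9403 genes. Since the median of all genes lies below 0 with scaling by total counts, Clock, Cry1 and Nr1d2 are also given relative to it. Scaling by TMM or by median of ratios raised every log2 ratio by 0.10 or 0.11, after which the intervals of Arntl and Cry2 also lay above 0, and the 4 members below 0 stayed there under each scaling tried. For Nr1d2 this held only narrowly. Its upper bound was -0.1258 with total counts, and centring on the median of genes with 100 or more counts adds 0.1257.

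**Figure D2:**
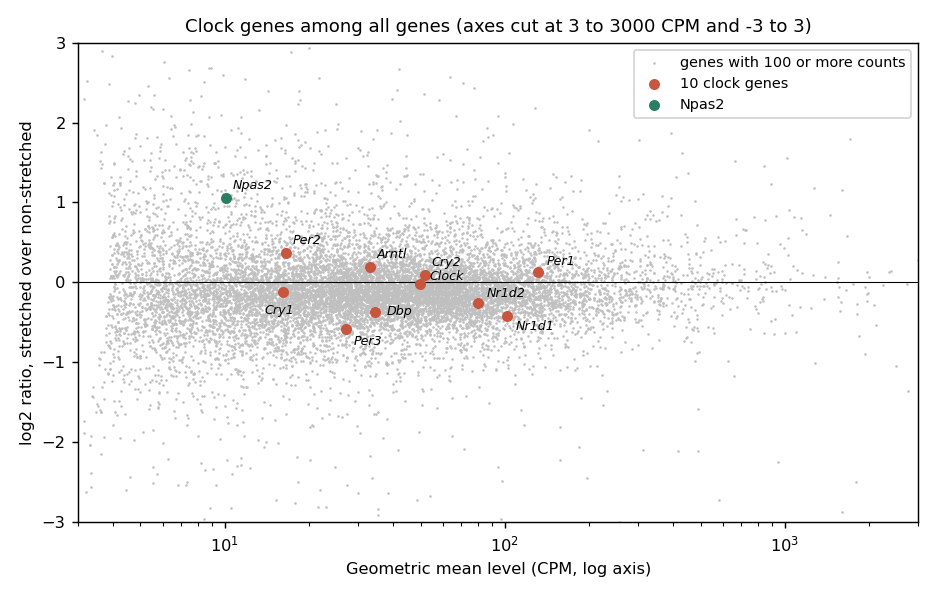
log2 ratio of stretched over non-stretched skin against the geometric mean level in CPM (log axis) for genes with 100 or more counts (grey), with the 10 clock genes in red and Npas2 in green. The members lie inside the cloud, between -0.58 and 0.36, while Npas2 lies higher, at 1.05, with 96.6% of the genes below it.

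In the positive arm, Arntl had 436 counts in non-stretched skin and 410 in stretched skin. Scaled by depth these are 30.8 and 35.2 CPM, a log2 ratio of 0.19 (interval -0.01 to 0.39). Arntl was thus slightly higher in stretched skin, by an amount at the edge of its counting error. Clock, the partner of BMAL1, had 711 and 579 counts, or 50.2 and 49.7 CPM, a log2 ratio of -0.02 (interval -0.18 to 0.14). Its levels could not be told apart at this depth. Relative to the median of genes with 100 or more counts Clock stood at 0.11, and its sign turned positive under 5 of the 6 scalings (0.10 with median of ratios). The median of the arm was 0.09, and between 0.06 and 0.21 over the other scalings.

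The Per genes, whose products form the repressor complex with the CRY proteins, went both ways. Per1 had 1774 and 1597 counts, or 125.3 and 137.1 CPM in non-stretched and stretched skin, a log2 ratio of 0.13 (interval 0.03 to 0.23). Per2, on chromosome 1 from 91415982 to 91459324 (mm10), had 206 and 218 counts, or 14.6 and 18.7 CPM, a log2 ratio of 0.36 (interval 0.08 to 0.64). Both are also known to respond to acute signals such as glucocorticoids, and both were higher in stretched skin. Per3, on chromosome 4 from 151003652 to 151044665, had 470 and 258 counts, or 33.2 and 22.1 CPM, a log2 ratio of -0.58 (interval -0.81 to -0.36). This was the largest difference of the 10 with scaling by total counts, whereas relative to the median of genes with 100 or more counts Per2 stood at 0.49 and Per3 at -0.46. Of genes with 100 or more counts, 11.7% had a lower log2 ratio than Per3. Within a library, where total depth cancels, the ratio of Per2 to Per3 counts was 0.438 in non-stretched skin and 0.845 in stretched skin, a log2 difference of 0.95 (exact interval 0.58 to 1.31). The ratio of Per1 to Per3 differed 1.64-fold (interval 1.38 to 1.94), and that of Per1 to Per2 differed 0.851-fold with an interval that included 1 (0.691 to 1.05). Per3 therefore parted from both of its paralogs, which did not part detectably from each other.

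The Cry genes encode the stronger transcriptional repressors of the pair of protein families. Cry1 had 238 counts in non-stretched skin and 180 in stretched skin, or 16.8 and 15.5 CPM (log2 ratio -0.12, interval -0.41 to 0.16), and stood at 0.00 relative to the median of genes with 100 or more counts. Cry2 had 709 and 621 counts, or 50.1 and 53.3 CPM (0.09, interval -0.07 to 0.25). The ratio of Cry1 to Cry2 did not differ detectably between the libraries (0.863-fold, interval 0.687 to 1.08). Over the 5 genes of the negative arm the median was 0.09 and the mean -0.025, which differ in sign.

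Nr1d1, Nr1d2 and Dbp, the members outside both arms, are targets of the activators, and they were all lower in stretched skin. Nr1d1, on chromosome 11 from 98767932 to 98775333, had 1662 counts in non-stretched skin and 1023 in stretched skin, or 117.4 and 87.8 CPM (log2 ratio -0.42, interval -0.53 to -0.31). Nr1d2, on chromosome 14 from 18204054 to 18239127, had 1239 and 856 counts, or 87.5 and 73.5 CPM (-0.25, interval -0.38 to -0.13), which is -0.13 relative to the median of genes with 100 or more counts. Dbp, on chromosome 7 from 45705088 to 45710203, had 555 and 354 counts, or 39.2 and 30.4 CPM (-0.37, interval -0.56 to -0.17). Of genes with 100 or more counts, 19.9% had a lower log2 ratio than Nr1d1, 34.4% than Nr1d2 and 23.6% than Dbp. The median of the 3 genes was -0.37. Exons of Nr1d1 overlap those of Thra on the other strand over 8.55% of their length, and exons of Dbp overlap those of Sphk2 over 18.0%. The counting is not stated to use strand, so reads there cannot be assigned. Thra was itself lower in stretched skin (992 and 644 counts, log2 ratio -0.34, interval -0.49 to -0.20), whereas Sphk2 was not (1040 and 838 counts, -0.03, interval -0.16 to 0.10). The other 8 members share under 5% of their exons with another gene.

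**Figure D3:**
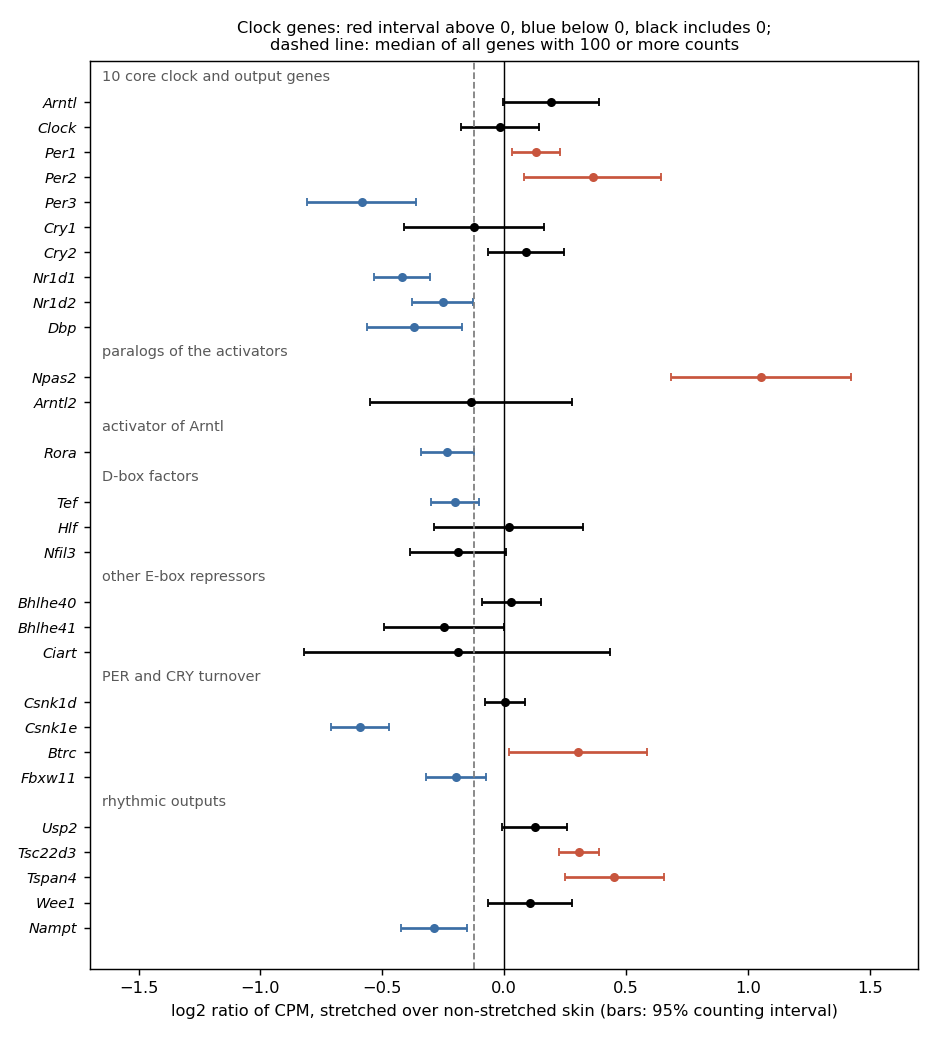
log2 ratio of CPM in stretched over non-stretched skin for the 10 clock genes and for other clock genes with 20 or more counts, with 95% counting intervals. Red intervals lie above 0, blue below 0 and black include 0, and the dashed line is the median of all genes with 100 or more counts (-0.13). Npas2 (1.05) is the farthest to the right and Csnk1e (-0.59) and Per3 (-0.58) are the farthest to the left.

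Compared as arms, the gap between the activators and the PER and CRY repressors depended on how the latter, which went both ways, were summarised. The median of the positive arm less that of the negative arm, which is the value of Cry2, was -0.0013 on the log2 scale. The positive arm stood at 0.09, against a mean of -0.025 over the negative arm and a median of -0.12 without Per1 and Per2. Against Nr1d1, Nr1d2 and Dbp the positive arm was higher by 0.46, and against all 8 other members by 0.28. The latter is a difference of medians. Its interval, 0.13 to 0.42, uses the counting variance of the mean and leaves out the spread among members. Ratios of genes within a library, which restate the same counts, do not change with scaling. The ratio of Arntl to Nr1d1 counts was 0.262 in non-stretched skin and 0.401 in stretched skin, 1.53-fold higher (exact interval 1.30 to 1.79). The ratio of Arntl to Dbp was 0.786 and 1.16, or 1.47-fold higher (interval 1.21 to 1.79), and those to Nr1d2 and Per3 were 1.36-fold (1.16 to 1.60) and 1.71-fold higher (1.39 to 2.11). The ratios of Arntl to Per1 (1.04-fold, interval 0.896 to 1.22), Per2 (0.889-fold, 0.699 to 1.13), Cry1 (1.24-fold, 0.975 to 1.59) and Cry2 (1.07-fold, 0.900 to 1.28) had intervals that included 1. For Clock the same 4 ratios were above 1 (1.18-fold to 1.48-fold), that to Per2 was below 1 (0.770-fold, interval 0.614 to 0.965), and 3 included 1. Of the 27 ratios computed in this family, chosen with the design or with the counts known, none has a replicate check. A different hour of harvest, an effect of stretch, a difference in cell composition and a difference between mice cannot be told apart with 1 library in each condition.

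**Figure D4:**
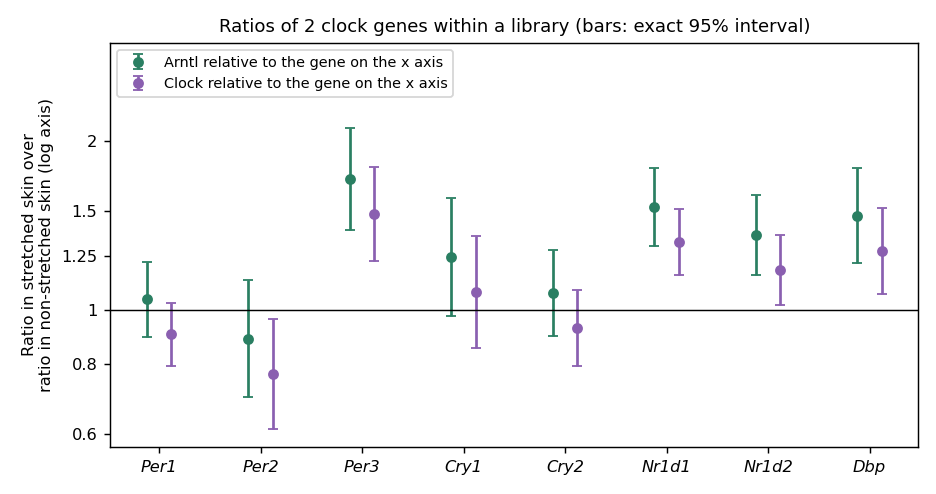
Ratio of Arntl (green) or Clock (purple) counts to those of each other member, in stretched skin over non-stretched skin, on a log axis with exact 95% intervals. The ratios to Per3, Nr1d1, Nr1d2 and Dbp lie above 1 for both activators, those to Per1, Cry1 and Cry2 include 1, and that of Clock to Per2 lies below 1.

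Outside the 10 members, Npas2 was the clock gene that differed most. It encodes a paralog of CLOCK that also pairs with BMAL1 and lies on chromosome 1 from 39193731 to 39363236. Npas2 had 99 counts in non-stretched skin and 169 in stretched skin, a 2.07-fold difference in CPM (log2 ratio 1.05, interval 0.69 to 1.43), and 96.6% of genes with 100 or more counts had a lower log2 ratio. It was not called. With 1 added to each FPKM its fold was 1.64 and its product 9.91, both under their thresholds of 2 and 10, and it was not called either without the filter on level or with nothing added to the FPKM values. These changes were not made together, in which case its 2.07-fold difference would be above 2. Its ratio to Clock was higher in stretched skin by 1.07 on the log2 scale (exact interval 0.66 to 1.47). Arntl2, the paralog of Arntl, had 116 and 87 counts and did not differ detectably (-0.13, interval -0.55 to 0.28).

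Over all 22 other clock genes the interval lay above 0 for 4, below 0 for 7 and included 0 for 11, with a median of -0.15, and 0 were called by the rule of the study. Over all 16255 genes above 3 counts in a library the shares were 17.8% above, 33.3% below and 48.8% including 0, with a median of -0.12, so these genes too divided much as others did. Rora encodes a nuclear receptor that activates Arntl at the element that REV-ERBs repress, and it was lower in stretched skin. It went from 116.5 to 99.2 CPM (-0.23, interval -0.34 to -0.12), an interval that included 0 with centring alone among the scalings, while Rorb had 6 and 3 counts. Of the D-box factors, Tef, a paralog of Dbp, went from 139.8 to 121.6 CPM (-0.20, interval -0.30 to -0.10), but its interval included 0 with TMM, median of ratios and centring. Its paralog Hlf (0.02) and the D-box repressor Nfil3 (-0.19) had intervals that included 0, but that of Nfil3 lay below 0 with totals without keratin, Krtap and muscle marker genes. The ratio of Dbp to Hlf was lower in stretched skin (0.765-fold, exact interval 0.594 to 0.985), and the interval of its ratio to Tef included 1 (0.891-fold, 0.765 to 1.04). The other repressors at E-boxes, Bhlhe40 (0.03), Bhlhe41 (-0.24) and Ciart (-0.19, with 54 and 39 counts), had intervals that included 0, but that of Bhlhe40 lay above 0 with TMM and that of Bhlhe41 below 0 with totals without keratin, Krtap and muscle marker genes.

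Of the kinases and F-box proteins that set the turnover of PER and CRY, Csnk1e, which encodes casein kinase 1 epsilon, had the lowest log2 ratio. It had 1661 counts in non-stretched skin and 907 in stretched skin, or 117.4 and 77.9 CPM (log2 ratio -0.59, interval -0.71 to -0.47). Its paralog Csnk1d had 2616 and 2160 counts, or 184.8 and 185.4 CPM (0.00, interval -0.08 to 0.09). Fbxw11 was at -0.20 (interval -0.32 to -0.07) and Btrc at 0.30 (0.02 to 0.58), and both encode F-box proteins that bind phosphorylated PER. With TMM scaling the interval of Fbxw11 included 0 (value -0.09) and that of Csnk1d lay above 0 (0.11), and with totals without keratin, Krtap and muscle marker genes that of Btrc included 0. Fbxl21 had 6 and 9 counts, too few for a comparison.

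Of 5 output genes that cycle in many mouse tissues, 2 were higher, 1 was lower and 2 had intervals that included 0. Tspan4, a tetraspanin, went from 27.0 to 36.9 CPM (0.45, interval 0.25 to 0.65), and Tsc22d3, which encodes the glucocorticoid-induced leucine zipper, from 167.2 to 206.6 CPM (0.31, interval 0.22 to 0.39). Exons of Tspan4 overlap those of Chid1 on the other strand over 13.4% of their length. Usp2, a ubiquitin protease (0.13), and Wee1, a cell cycle kinase driven by E-boxes (0.11), had intervals that included 0, and both lay above 0 with TMM. Nampt, an enzyme of NAD synthesis that is also driven by E-boxes, was lower (78.7 and 64.6 CPM, -0.29, interval -0.42 to -0.15). Of 6 glucocorticoid-induced genes, Tsc22d3, Fkbp5 (0.19, interval 0.05 to 0.32) and Sgk1 (0.14, interval 0.05 to 0.24) were higher, Zbtb16 was lower (27.8 and 14.4 CPM, -0.95, interval -1.21 to -0.68), and Klf9 (-0.03) and Mt2 (-0.08) included 0. The signs of Klf9 and Mt2 turned positive with TMM scaling, and the interval of Mt2 lay below 0 with totals without keratin, Krtap and muscle marker genes. Of 5 immediate early genes, which share acute induction with Per1, 2 had intervals above 0 and 3 below, from -0.39 for Egr1 to 0.44 for Fosb.

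Markers of the labelled tissue were present, and several lists of cell type markers differed between the libraries. The 6 keratinocyte markers summed to 14178 CPM in non-stretched skin and 14967 in stretched skin, with 3 higher, 2 lower (Dsg3 at -0.79 and Trp63 at -0.49) and 1 whose interval included 0. All 6 fibroblast markers (summed 40931 and 77054 CPM) and all 6 macrophage markers (639.3 and 1496 CPM) were higher in stretched skin. All 6 markers of hair shaft and sheath (8338 and 1454 CPM), all 5 of adipocytes (1189 and 752.9 CPM), all 4 of melanocytes (372.0 and 155.0 CPM) and 7 of 8 of skeletal muscle (27989 and 19863 CPM) were lower. Hair shaft and sheath markers thus stood far higher in non-stretched skin, though the study describes follicles in telogen. The hair cycle stage of each library was not tested. The 4 endothelial markers went both ways (171.4 and 212.6 CPM). None of these markers was at 0 in both libraries. The lists went in different directions, and their part in the differences of Nr1d1, Nr1d2, Dbp, Per3 and Npas2 was not tested.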

How the data were processed

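The authors sequenced 1 library of each condition in single-end reads of 76 bases, filtered them on base quality with the FASTX-Toolkit and aligned them to mm10 with TopHat2. They deposited raw read counts for 24421 gene symbols, without normalization. The counter, its annotation and its use of strand are not given in the sources used here, and the FPKM values that the study made with Cufflinks were not used. Total counts were 14152379 and 11648655, at which 3 counts equal 0.212 and 0.258 CPM, and counts of 3 or fewer were set to 3 in ratios.

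FPKM was computed from the counts, the library totals and the union of exons in GENCODE M21, with symbols matched by name (23376), by synonym (693) or not at all (352). Shared stretches of 76 bases with genes elsewhere were searched in the GENCODE transcripts, and only Nr1d2 among the members had any (2.20%). No test was made, since there is 1 library in each condition. Intervals are exact (Clopper-Pearson for CPM ratios, Poisson for levels, conditional odds ratio for ratios within a library), and intervals of arm differences use the counting variance of the mean. The calculations were tested on simulated data.

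The genes named are the 10 members, the other clock and glucocorticoid genes of the lists, and the extremes of the immediate early list (cell type markers as sums, with 2 keratinocyte markers named after their values were seen), besides genes whose exons overlap one of these. The values of 2 other clock genes are counted in the list but not reported here. The members and lists were chosen with earlier results of these data known. The alternatives were library scaling with edgeR 4.0.16 (TMM and upper quartile), with DESeq2 1.42.0 (median of ratios) or by reduced totals, other pseudocounts and filters, and arms of other composition. R 4.3.3 and Python 3.11.15 with scipy 1.17.1, numpy 2.4.6, pandas 2.3.3 and matplotlib 3.10.9 were used.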

Additional observations from a re-analysis of the deposited data

How the results depend on the processing

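The scalings add 1 shift to every log2 ratio, equal to 0.10 for TMM, 0.11 for the DESeq2 size factors, 0.10 for the upper quartile, 0.06 for totals that leave out the 50 most abundant genes, -0.03 for totals without keratin, Krtap and muscle marker genes, and 0.13 for ratios centred on the median of genes with 100 or more counts. Centring, and the gaps against single groups of members, were chosen after seeing the data. The median of the negative arm moved from 0.09 to 0.19 (TMM), 0.20 (DESeq2), 0.19 (upper quartile) and 0.22 (centring). It was -0.025 as a mean and -0.12 without Per1 and Per2. The median of Nr1d1, Nr1d2 and Dbp moved from -0.37 to -0.26, -0.26, -0.27 and -0.24 in the same order of scalings, and that of the positive arm from 0.09 to 0.19, 0.20, 0.19 and 0.21. The gap of 0.28 between the positive arm and the other members is free of scaling and lay between 0.23 and 0.40 with 1 CPM added, as a mean, with Npas2 added, without Cry1, and without Per1 and Per2, but was -0.0013 against the negative arm alone and 0.46 against Nr1d1, Nr1d2 and Dbp alone. No member and no other clock gene was called under any of the 10 alternatives for the calls. Over all genes 285 were upregulated and 267 downregulated (51.6% up), with 454 and 442 for CPM in place of FPKM and 355 and 217 (62.1% up) with centring, which raises every ratio. The study itself reports more upregulated genes than 285, from its own FPKM values, which were not used here. The cause of the difference with CPM was not tested. Among 259 values of 37 single genes under 7 alternatives, 31 moved beyond their counting interval and 0 changed sign with an interval off 0. No paired analysis was possible because each condition has a single library, which also leaves none to omit. Depth limits Rorb, Fbxl21 and Ciart most.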
